A study of Mus musculus with 6 samples.

Results

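miR-140 is a skeletal microRNA, and both of its mature arms, mmu-miR-140-5p and mmu-miR-140-3p, were followed here in vesicles released by dying bone-forming cells. The arms were taken by name, as 2 of the 1712 entries of a deposited table, of which 1528 have the name of a mouse miRNA and 184 have no more than a numeric label. The mmu- prefix is left out below. The vesicles are apoEVs, which osteoblasts shed after apoptosis was induced and the cells were kept for 48 h without serum. The knockout vesicles (n = 3 libraries) came from osteoblasts of Prx1cre;SIRT6f/f mice, where the Prx1 enhancer, active in limb mesenchyme, drives the Cre that removes the floxed alleles of the deacylase gene Sirt6. The control vesicles (n = 3 libraries) came from SIRT6f/f mice, which carry the floxed alleles with no Cre named in the labels. Age, sex and the number of animals per library are not given in the labels. Whether replicates came from separate animals or cultures is not given either, so p-values reflect only variation among these libraries, which may be technical. For the levels, the limma SE was taken from the trend of spread with level over all tested entries, and hardly from an entry's own spread. The table lists miRNAs, and the loss of Sirt6 itself was therefore not checked here.

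In cartilage, miR-140 is among the most abundant miRNAs, and mice that lack it have short long bones and develop joint changes that resemble osteoarthritis. A miRNA hairpin is cut by Drosha and Dicer into a short duplex, of which usually one strand is kept in an Argonaute protein and the other is discarded. The kept strand pairs with messenger RNAs mainly through its seed, the bases near its 5′ end. miR-140 was first studied through its 5p arm, and the 3p arm has been reported as the more abundant strand in cartilage. Its gene lies within Wwp2, which encodes a ubiquitin ligase, and the transcription factor SOX9 drives both in chondrocytes.

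In GENCODE M21 on GRCm38 the Mir140 hairpin lies on the plus strand at chr8:107551244-107551313, inside Wwp2 (chr8:107436365-107558595, plus strand). In the protein-coding transcript Wwp2-201 it falls in the intron between exon 16 and exon 17, which is 2141 bases long. It starts 1108 bases after the upstream exon and ends 963 bases before the downstream exon. The same stretch is exonic in Wwp2-206, a transcript annotated as a retained intron. The sources used here do not name the genome build behind the deposited table, and these positions were matched by name.

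The hairpin and the 3p arm are shown because the arm preference described below is a preference for the stretch in capitals. The sequences are those of RefSeq on GRCm38.p6, written as RNA from 5′ to 3′.
mir-140 hairpin: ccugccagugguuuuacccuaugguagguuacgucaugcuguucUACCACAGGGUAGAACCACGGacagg
miR-140-3p: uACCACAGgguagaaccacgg
miR-497b: cACCACAGugugguuuggacgugg
In the hairpin, which has 70 bases, capitals mark miR-140-3p, at positions 45 to 65. In the mature sequences, capitals mark the seed, bases 2 to 8. The lowest-energy fold predicted by RNAfold had -39.1 kcal/mol, and 20 of the 21 bases of the 3p arm were paired in it, with partners between hairpin positions 5 and 26. Of 1738 mature mouse sequences in the RefSeq table, 2 carry the seed ACCACAG, namely miR-140-3p (chr8:107551288-107551308, plus strand) and miR-497b (chr11:70234763-70234786, minus strand). miR-497b was listed at 4.52 RPM in knockout replicate 2 and at 0 in the other 5 libraries, where a count of 0 allows up to 3 reads, or 1.63 to 2.22 RPM. Over all libraries miR-497b had 8 reads and miR-140-3p 58659, so that nearly all reads of these 2 entries were those of miR-140-3p. Named entries with no mature sequence in RefSeq, such as miR-140-5p, were not searched for the seed. Reads with shifted ends, which can carry another seed, were not separated.

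miR-140-3p was an abundant miRNA of these vesicles. It had 5331, 5716 and 2889 RPM in knockout replicates 1, 2 and 3, against 8558, 7713 and 7592 RPM in control replicates 1, 2 and 3. RPM scales the reads of an entry to a library total of 1000000 over all listed entries. Every knockout library lay below every control library, and knockout replicate 3 was the lowest of all. The group levels were 4645 ± 1533 RPM in knockout and 7954 ± 526 RPM in control vesicles (mean ± SD, n = 3 each). The spread relative to the mean was 33.0% in the knockout group and 6.62% in the control group.

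miR-140-5p was far rarer, and by the means over all libraries the 3p arm was 99.7 times as abundant. The 5p arm had 60.9, 55.9 and 47.9 RPM in the knockout replicates, against 72.8, 53.3 and 88.5 RPM in the control replicates. The groups overlapped, because control replicate 2 was below 2 of the knockout libraries. The means were 54.9 ± 6.59 RPM in knockout and 71.5 ± 17.6 RPM in control vesicles (SD, n = 3 each). These levels rest on 98, 99 and 88 reads in knockout and on 101, 72 and 144 reads in control libraries, where the 3p arm had 5311 to 12357 reads. For control replicate 2, for example, the 95% exact Poisson interval of the 5p level was 41.7 to 67.1 RPM. Such intervals cover counting error only.

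**Figure D1:**
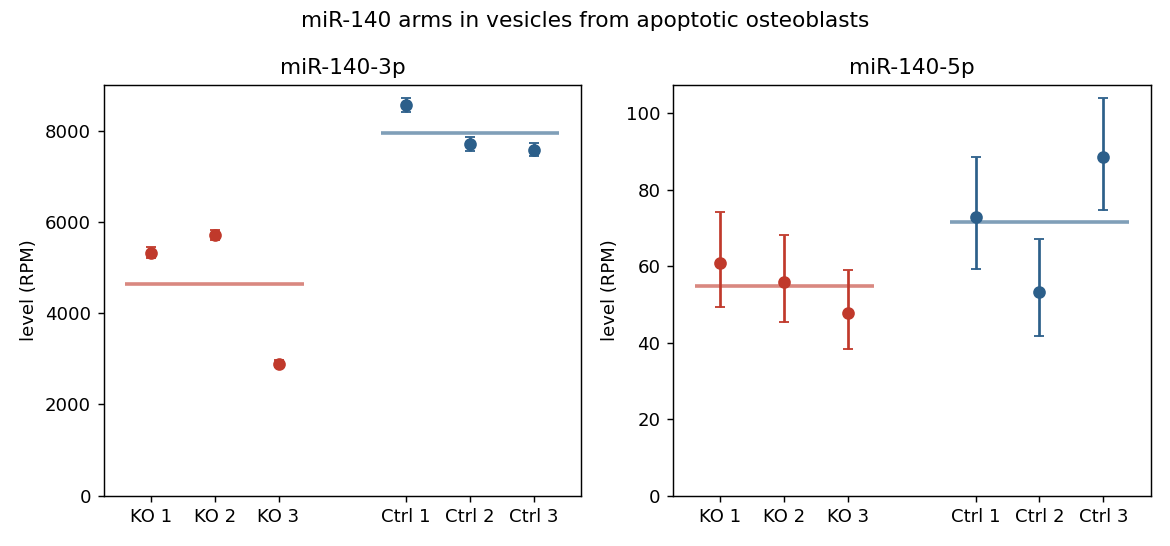
Level in RPM of miR-140-3p (left) and miR-140-5p (right) in each library, knockout in red and control in blue, with points for libraries, bars for 95% exact Poisson intervals of the reads and horizontal lines for group means. All 3 knockout points of the 3p arm, the highest at 5716 RPM, lie below the lowest control point at 7592 RPM, while the 5p points of the groups overlap.

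The 3p arm ranked 41, 40 and 47 among all entries in the knockout libraries, against 29, 32 and 31 in the control libraries, where rank 1 is the highest RPM. Among entries with a miRNA name it ranked 20, 19 and 23 in knockout and 17, 17 and 15 in control libraries. The 5p arm stood at rank 203, 211 and 193 in knockout and 201, 212 and 190 in control libraries. Among named entries its mean rank was 150 in either group. Both arms were therefore in the upper part of the 943 to 1115 entries above 0 in a library, and the rank of the 3p arm, not that of the 5p arm, was separated between the groups. For how many other entries the ranks were separated was not counted, so this separation has no background to be judged against.

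**Figure D2:**
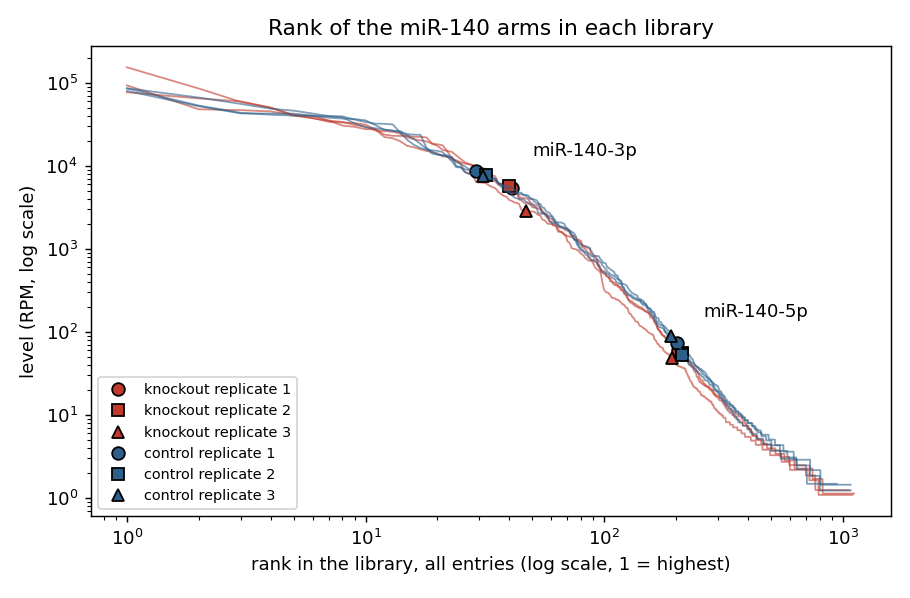
Level in RPM against rank in each library over all entries above 0 (both log scales), with lines for libraries in red (knockout) and blue (control) and marked points for the miR-140 arms. The 3p points lie between rank 29 and rank 47 and the 5p points between rank 190 and rank 212.

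By its mean over all libraries, miR-140-3p was number 19 among the named entries, next to miR-152-3p above it and let-7f-5p below it. miR-152-3p, of the miR-148 family, had 4881 ± 1922 RPM in knockout and 7795 ± 244 RPM in control vesicles, and let-7f-5p had 4482 ± 1403 and 7174 ± 202 RPM in the same groups. The level of miR-140-3p was 0.918 to 1.09 times that of miR-152-3p within a library and 0.99 to 1.20 times that of let-7f-5p, so these neighbours did not differ from it beyond their spread. The others nearest were miR-6240 (8029 ± 3911 RPM in knockout, 5434 ± 2447 RPM in control) and miR-199b-3p (4673 ± 1861 and 8455 ± 397 RPM) above it. Below it came let-7b-5p (3575 ± 920 RPM in knockout, 6165 ± 90.9 RPM in control) and miR-191-5p (3558 ± 600 and 5199 ± 487 RPM). miR-6240, which is on the list of possible fragments of longer RNAs, was the only one of these 6 with a higher mean in the knockout group. Of the same 6, only miR-199b-3p had a limma adjusted p under 0.05 between the groups (0.0456), beside 0.0850 for miR-140-3p.

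The neighbours of miR-140-5p in the same order were miR-30e-3p, miR-215-5p and miR-8119 above it and the muscle miRNA miR-206-3p, miR-107-3p and miR-184-3p below it, at means over all libraries of 59.5 to 65.8 RPM against 63.2 RPM for miR-140-5p. Of these, miR-107-3p differed most between the groups, with 39.8 ± 15.2 RPM in knockout and 83.5 ± 4.62 RPM in control vesicles (limma adjusted p = 0.0378). The order among these 7 entries lies within the spread of miR-140-5p.

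The 3p preference was present in all 6 libraries. The 3p arm took 98.9% (95% Wilson interval 98.6% to 99.1%), 99.0% (98.8% to 99.2%) and 98.4% (98.0% to 98.7%) of the miR-140 reads in the knockout libraries. In the control libraries it took 99.2% (99.0% to 99.3%), 99.3% (99.1% to 99.5%) and 98.8% (98.6% to 99.0%). As a ratio, the 3p arm was 87.5, 102 and 60.4 times the 5p arm in knockout and 118, 145 and 85.8 times in control libraries. The lowest ratio was that of knockout replicate 3 and the highest that of control replicate 2, and the groups overlapped. The table gives 1 value per arm, so that reads with shifted ends were not separated.

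Both arms reached a mean of at least 10 RPM in 36 hairpins, and of these 16 had more 3p and 20 more 5p reads. By the mean over all libraries, miR-140 was the second most tilted to 3p. Its mean log2(5p/3p) was -6.56 after adding 1 RPM to each arm. Only miR-143, named here after its values were seen, was further out, at -8.14, and the next were miR-152 at -6.45 and, also named after its values were seen, miR-320 at -5.73. In the knockout libraries alone, the means of miR-320 (-6.43 ± 0.41, SD) and miR-152 (-6.33 ± 0.51) lay just below that of miR-140 (-6.32 ± 0.39). The control libraries had miR-320 ratios from -7.93 to -1.97. When hairpins with rarer arms are included, 467 had both arms listed, and miR-140 came at position 18 from the 3p end. The hairpins nearest to it there, miR-25, miR-378a, miR-3058 and miR-222 above and miR-148b, miR-127, miR-152 and miR-501 below, included 7 whose 5p arm had a mean under 10 RPM (0.396 to 5.87 RPM). For such arms the added 1 RPM bounds the ratio. miR-455, another 3p-tilted hairpin known from cartilage, had -3.01.

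**Figure D3:**
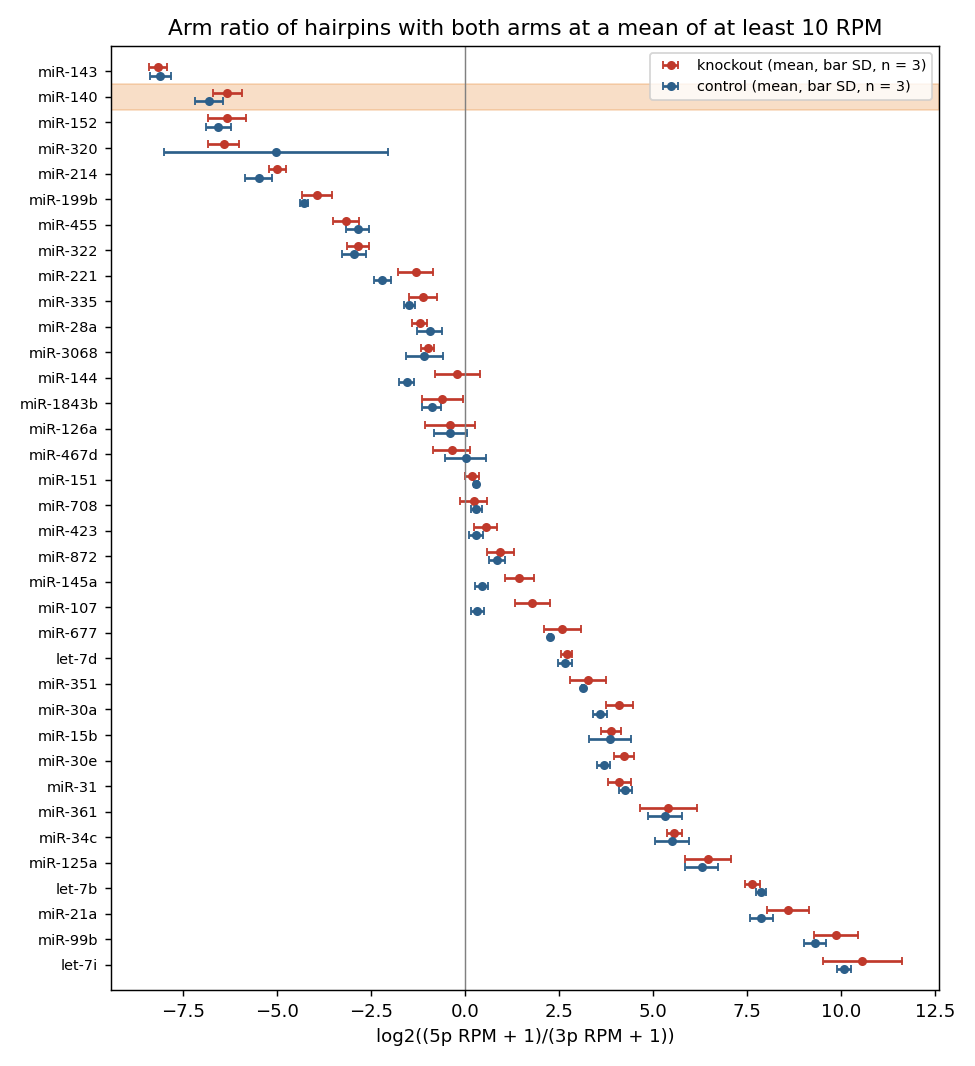
Mean log2((5p RPM + 1)/(3p RPM + 1)) of 36 hairpins in knockout (red) and control (blue) libraries with bars for the SD (n = 3 each), ordered from the most 3p-tilted at the top. miR-140, in the shaded row, is second by the mean over all libraries, which sets the order. Its means are -6.32 in knockout and -6.81 in control libraries. By the knockout mean alone, miR-320 (-6.43) and miR-152 (-6.33) also lie beyond it.

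Whether the arm ratio differed between the genotypes was tested next. Apart from the 1 RPM added to each arm, which weighs most on rare arms, this ratio does not depend on how a library is scaled. The log2(5p/3p) of miR-140 was -6.43, -6.65 and -5.89 in the knockout replicates, against -6.86, -7.15 and -6.41 in the control replicates. The means were -6.32 ± 0.39 in knockout and -6.81 ± 0.37 in control libraries (SD, n = 3 each). The difference of 0.48 ± 0.31 (SE) did not pass the threshold (limma over 36 hairpins, adjusted p = 0.523), and its 95% interval was -0.19 to 1.16. The exact 2-sided permutation test gave p = 0.3, where 0.1 is the smallest that 3 against 3 libraries allow. Counting error alone gives an SE of 0.12 for this difference. Across the 36 hairpins 2 passed (5.56%), miR-107 and miR-144, both with higher ratios in the knockout group, and 26 had a difference above 0, with a median of 0.15. No hairpin passed without knockout replicate 2, knockout replicate 3 or control replicate 2, while 4 to 5 had an unadjusted limma p under 0.05 in those settings, and 7 passed without knockout replicate 1.

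Neither arm passed the limma threshold between the genotypes. The log2 fold change of miR-140-3p, knockout over control on log2(RPM + 1), was -0.84 ± 0.31 (SE), with a 95% interval of -1.44 to -0.23 and a limma adjusted p = 0.0850 (unadjusted p = 0.00658). That of miR-140-5p was -0.35 ± 0.35, with an interval of -1.04 to 0.33 and a limma adjusted p = 0.655. For the 3p arm counting error is small (0.012 on the log2 scale), and for the 5p arm it gives an SE of 0.12. Of 1114 tested entries 54 passed (4.85%), 24 higher (2.15%) and 30 lower, a split of 38 and 2 after scaling to named entries outside a fragment-like list, 28 and 5 after scaling to all named entries, 32 and 8 after median centring and 32 and 16 after quantile normalization. The 3p arm passed when entries averaging under 10 RPM were left out (limma adjusted p = 0.0393) and after quantile normalization (limma adjusted p = 0.0357). Its adjusted p ranged from 0.0357 to 0.456 over 17 alternatives. Without knockout replicate 3 its value was -0.52 (limma adjusted p = 0.121), and the median over all tested entries was -0.17 there, against -0.27 with all libraries.

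The separation of the 3p levels between the groups was shared by many miRNAs. Every knockout library lay below every control library for 19.3% of the tested entries and for 53.2% of 267 ordinary named entries that averaged 10 RPM or more. Among 46 ordinary named entries that averaged 1000 RPM or more, 35 were separated in this way, 38 had a fold change below 0, the median was -0.67, and 8 had a fold change lower than that of miR-140-3p. Ordinary named entries as a whole took 37.7%, 40.3% and 29.8% of reads in the knockout libraries, against 52.6%, 47.7% and 47.8% in the control libraries. As RPM is a share of all listed reads, the RPM of a miRNA also depends on the reads of the other entries. The part of this in the miR-140 levels was not tested. Shares of reads also cannot tell fewer miRNA molecules of a kind from more of the other RNA.

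Set against ordinary named reads alone, miR-140-3p took 1.41%, 1.42% and 0.969% in the knockout libraries and 1.63%, 1.62% and 1.59% in the control libraries. The groups still did not overlap (exact 2-sided permutation p = 0.1, the smallest possible), and the ratio of means was 0.787. How many other entries were separated on this scale was not counted, so this separation has no background to be judged against. Knockout replicate 3 lay furthest from the control libraries on this scale too. After this scaling the fitted log2 fold change of the 3p arm was -0.37 ± 0.21 (limma adjusted p = 0.456), while the median of all tested entries was 0.07. miR-140-5p took 0.0162%, 0.0139% and 0.0161% of ordinary named reads in knockout and 0.0138%, 0.0112% and 0.0185% in control libraries, with overlapping groups. Its fitted value turned to 0.11 ± 0.24 after the same scaling (limma adjusted p = 0.850, within a range of 0.395 to 0.924 over 17 alternatives).

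**Figure D4:**
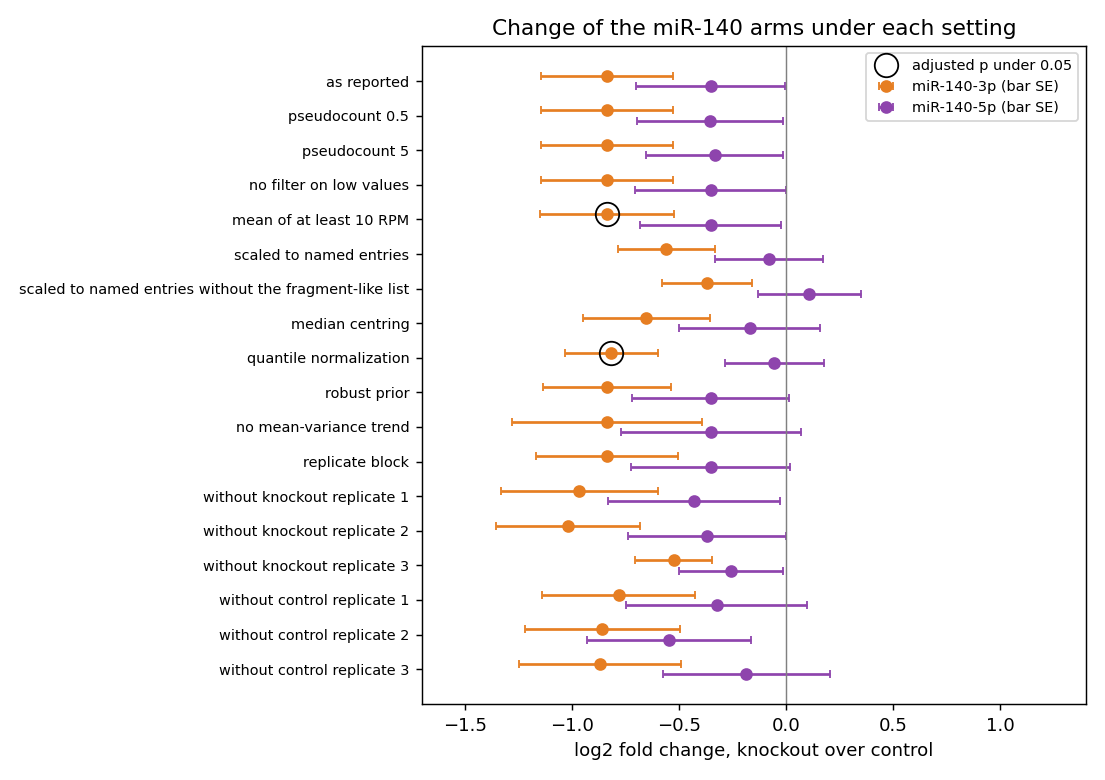
Log2 fold change, knockout over control, of miR-140-3p (orange) and miR-140-5p (purple) under each setting, with bars for the SE and a ring where the limma adjusted p was under 0.05. The 3p values run from -1.02 to -0.37 and the 5p values from -0.55 to 0.11, and rings appear for the 3p arm in 2 settings.

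miRNAs studied in chondrocytes or cartilage were then set beside miR-140. Of 32 listed names, 29 were in the table and tested. Lower in knockout vesicles were 2.69% of all tested entries (limma, adjusted over all entries). Of the 267 ordinary named entries that averaged 10 RPM or more, 28 were lower. Of the list members 2 were lower and 0 higher, with those 2 among the 23 that averaged 10 RPM or more. Those that passed were miR-29a-3p, which targets collagen mRNAs (1601 ± 559 RPM in knockout, 3361 ± 609 RPM in control, limma adjusted p = 0.00664), and miR-145a-3p, from the strand opposite to the one best known to target Sox9 (408 ± 132 and 729 ± 78.3 RPM, limma adjusted p = 0.0457). Neither was called after scaling to ordinary named entries. The median log2 fold change of the 29 was -0.68, with 27 below 0, beside -0.27 over all tested entries and -0.60 over the 267 ordinary named entries.

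miR-455, transcribed from a collagen gene and, like miR-140, linked to SOX9 in chondrocytes, is the list's closest counterpart. miR-455-3p had 179, 159 and 96.8 RPM in the knockout replicates, against 309, 240 and 241 RPM in the control replicates. miR-455-5p had 14.3, 19.8 and 11.4 RPM in knockout and 42.5, 25.9 and 39.9 RPM in control libraries. For both arms the groups did not overlap. Among entries that averaged 10 RPM or more, the same held for 20 of the 23 list members, these arms included. It also held for 53.2% of the ordinary named entries at that level. Neither miR-455 arm passed, with log2 fold changes of -0.89 ± 0.30 (limma adjusted p = 0.0609) for 3p and -1.20 ± 0.42 (limma adjusted p = 0.0706) for 5p. The arm ratio of miR-455 had a log2 difference of -0.31 ± 0.30 (limma adjusted p = 0.680), opposite in sign to the 0.48 of miR-140. The abundant list members miR-26a-5p (-0.78), miR-199a-5p (-0.68), miR-27b-3p (-0.77) and miR-146b-5p (-0.47) had values of the same sign as both miR-140 arms and did not pass, with limma adjusted p from 0.137 to 0.394. miR-145a-5p had 0.11, with 1070 ± 97.1 RPM in knockout and 997 ± 187 RPM in control vesicles. The other members with a mean of at least 10 RPM that did not pass were miR-146a-5p, miR-27a-3p, miR-181a-5p, miR-365-3p, miR-24-3p, miR-181b-5p, miR-26b-5p, miR-222-3p, miR-320-3p, miR-221-3p, miR-335-5p, miR-98-5p, miR-93-5p and miR-29b-3p, with log2 fold changes from -1.15 to -0.18.

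**Figure D5:**
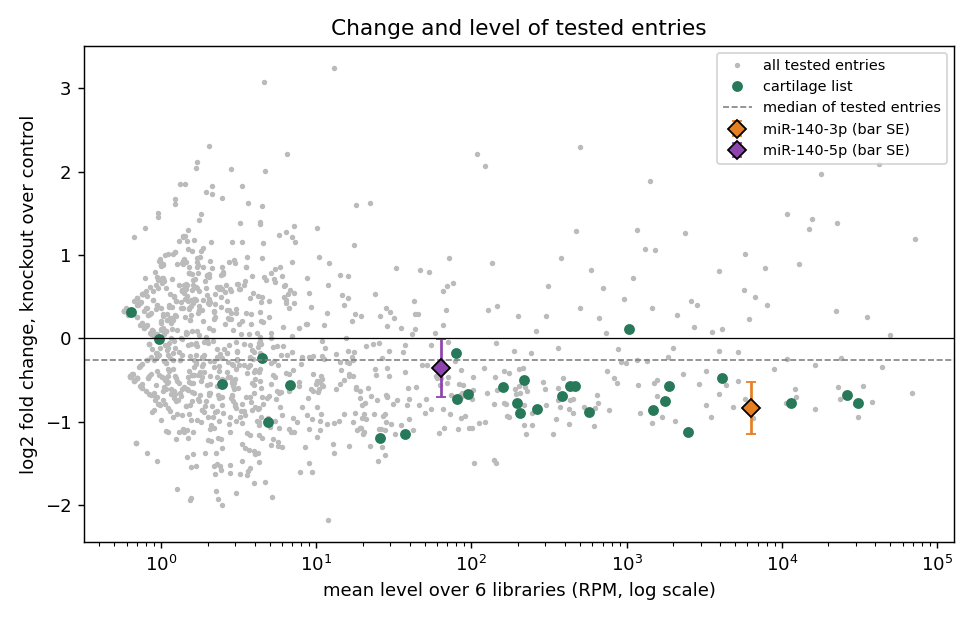
Log2 fold change, knockout over control, against mean level in RPM (log scale) for 1114 tested entries (grey), the cartilage list (green) and the miR-140 arms (diamonds with SE bars). miR-140-3p at -0.84 and most abundant members of the list lie below the dashed median of all entries at -0.27, and miR-140-5p at -0.35 lies close to it. The median of the 267 ordinary named entries that averaged 10 RPM or more, which is not drawn, is lower, at -0.60.

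The entries whose levels followed miR-140-3p most closely were miR-151-5p (Pearson r = 0.998), miR-27b-3p (0.998), miR-181a-5p (0.998), miR-151-3p (0.997) and miR-1249-3p (0.997). The r is on log2(RPM + 1) over the 6 libraries, among the 273 other named entries that averaged 10 RPM or more. Such values were common, since the median r with miR-140-3p over these entries was 0.914 and 141 of them exceeded 0.9, and the points share the total of each library and the difference between the genotypes. miR-27b-3p, for instance, had 10286, 10543 and 5368 RPM in the knockout libraries and 15391, 14039 and 13367 RPM in the control libraries, with knockout replicate 3 lowest as for miR-140-3p. For miR-140-5p the closest were miR-327 (0.923), miR-1843b-3p (0.915), miR-365-3p (0.91), the erythroid miR-451a (0.895) and miR-6961-3p (0.882), with a median of 0.609. The r between the miR-140 arms was 0.665, and 190 of the 273 entries followed the 3p arm more closely than its own partner did. Counting error enters any r with miR-140-5p, with a counting SE of 0.12 against 0.012 for the 3p arm. Its part in these r values was not tested.

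The vesicles, which the labels say came from osteoblasts, carried miRNAs of a mesenchymal marker list. Its 5 markers in the table summed to 43285 to 78261 RPM in knockout and 102916 to 120432 RPM in control libraries. How particular these markers are to osteoblasts was not tested. Markers of other cell types were far rarer. The blood list summed to 252 to 474 RPM in knockout and 621 to 875 RPM in control libraries, the endothelial list to 15.2 to 26.7 and 47.9 to 63.6 RPM, and the muscle list to 40.3 to 57.6 and 71.0 to 85.1 RPM. The epithelial (18.5 to 34.8 RPM in knockout, 24.5 to 25.2 RPM in control) and neural lists (4.35 to 23.7 and 17.2 to 34.0 RPM) overlapped between the groups. The 2 arms of miR-455, used as the cartilage markers beside miR-140, summed to 108 to 193 RPM in knockout and 266 to 351 RPM in control libraries. The part of any of these lists in the miR-140 levels was not tested. In a bulk vesicle sample, fewer vesicles of one source and less miRNA per vesicle cannot be told apart.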

How the data were processed

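Per the labels' protocols, apoEVs were collected by ultracentrifugation, their RNA was taken up in Trizol, and a commercial kit gave the small RNA libraries. The authors deposited 1 table of RPM values, in which each column sums to 1000000. The tools fastp and edgeR are named, with no role or version, per the submitters' processing notes. No aligner, miRNA release or build is given in the sources used here. All values of a column were whole multiples (tolerance 0.001 read) of 0.5 times its lowest value above 0, which therefore stands for 2 reads. Depth read in this way was 1608276 to 1838239 reads in knockout and 1352045 to 1627705 in control libraries. As no entry stood at 1 read, these are not complete raw counts, and no count test was run.

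Entries with at least 1 RPM in at least 3 libraries were tested on log2(RPM + 1) by limma 3.58.1 (R 4.3.3), 2-sided and with a mean-variance trend, using Benjamini-Hochberg adjustment over all of them and a threshold of 0.05. The fit put its whole weight on the trend, so that an entry's own spread hardly entered its SE. Arm ratios were tested with limma over hairpins, without a trend. Single values were compared with exact permutation tests (scipy 1.17.1), and folds were predicted with RNAfold 2.7.2. The 2 limma tests were also run on simulated data, which were not built to hold the shift in the share of ordinary named reads seen here. That run therefore gives no measure of error under such a shift.

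Ordinary named entries are those with a miRNA name outside 11 possible fragments of longer RNAs. Apart from a few picked later, as marked in the text, the entries printed are the arms, their 3 neighbours in rank on each side, the 5 closest by r, the nearest hairpins by arm ratio, sharers of the seed and the cartilage list. The members and lists were chosen with earlier results of these data known. No sequence of miR-140-5p is printed.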

Additional observations from a re-analysis of the deposited data

How the results depend on the processing

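miR-140-3p kept a value below 0 in all 17 alternatives (-1.02 to -0.37), and passed in 2, when entries averaging under 10 RPM were left out (-0.84, limma adjusted p = 0.0393, 355 entries tested) and after quantile normalization (-0.82, limma adjusted p = 0.0357). Leaving out single libraries gave -1.02 to -0.52, with the value nearest 0 without knockout replicate 3 (adjusted p 0.0951 to 0.369). With no mean-variance trend its limma adjusted p was 0.436. miR-140-5p reversed once, to 0.11 after scaling to named entries without the fragment-like list (limma adjusted p = 0.850); the cause was not tested. Its values without single libraries were -0.55 to -0.19. The arm ratio difference stayed above 0 in 13 alternatives and passed in 0 (limma adjusted p 0.164 to 0.937), at 0.27 to 0.68 without single libraries. Settings that alter only the filter, the prior, the trend or the replicate block leave each of these values unchanged. Their sign was therefore fixed in advance in those settings.

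The count of 54 entries called became 98 with a mean of at least 10 RPM, 33 with scaling to named entries, 30 with the replicate block and 0 with no mean-variance trend (55 higher and 75 lower at an unadjusted limma p under 0.05). Without single libraries it was 0 to 41: 20 without knockout replicate 2, and 21, 6 and 0 without control replicates 1, 2 and 3 (53 higher and 84 lower at an unadjusted limma p under 0.05 in the last). The 2 cartilage members called became 1 with either other pseudocount, no filter, median centring, a robust prior or the replicate block, 0 with either scaling to named entries or no trend, 8 when entries averaging under 10 RPM were left out, and 0 to 1 without single libraries. The 2 hairpins called became 4 with a pseudocount of 5, 1 with both arms at a mean of at least 1 RPM, and 0 to 7 without single libraries. Ranks among named entries only were 20.7 in knockout and 16.3 in control libraries for the 3p arm (42.7 and 30.7 among all entries) and 150 in each group for the 5p arm (202 and 201). The 3p share of miR-140 reads was 98.6% to 99.0% in knockout and 99.0% to 99.2% in control libraries without single libraries.

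Whether replicate numbers pair the libraries is not given in the labels. Deviations from the group means of same-numbered libraries correlated at 0.05, 0.14 and 0.07 over 355 entries. Those of libraries with unlike numbers correlated at -0.14 to 0.07. Such low values cannot exclude a pairing. With the replicate block the 3p value was -0.84 (limma adjusted p = 0.137), the 5p value -0.35 (limma adjusted p = 0.691) and the arm ratio difference 0.48 ± 0.18 (limma adjusted p = 0.253). Planned count tests and count-based scaling were not run, since complete raw counts could not be had. The 72 to 144 reads of miR-140-5p limit the precision of its level and of the arm ratio.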
